A study of Mus musculus with 8 samples.

Results

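*Lilrb4a*, 1 of the 55335 genes in the count table, was followed through 8 RNA-seq samples of CD8+ tumor-infiltrating lymphocytes (TILs). It was chosen by its symbol because its count was lower without LSD1, and that difference is therefore described here and not tested. The question was whether *Lilrb4a* varied from sample to sample like genes of the T cells or like *C1qa*, *Csf1r* and *Lyz2*, which are used as markers of macrophages and other myeloid cells. The 4 wildtype samples (WT, Lsd1f/f) are called S1 to S4 and the 4 knockout samples (KO, Cd4-Cre+Lsd1f/f) S5 to S8. All mice were C57BL/6, 6 to 10 weeks old, and carried MC38, a mouse colon carcinoma line, as an implanted tumor. The floxed *Lsd1* gene, also named *Kdm1a*, was shared by both genotypes, and Cre driven by Cd4 is used to remove it in developing T cells and not in myeloid cells. Cells were sorted as CD45.2+, TCRβ+, CD8+, CD44+ and PD-1+, at about 10000 to 20000 per sample, a gate that is meant to leave myeloid cells out. TILs of 2 mice were pooled for a WT sample, whereas a KO sample held those of 1 mouse, so that pooling and genotype cannot be told apart. The extraction protocol gives day 18 after implantation, and the series design text gives day 14.

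*Lilrb4a* encodes LILRB4A, or gp49B, an inhibitory receptor of the leukocyte immunoglobulin-like receptor family. Its cytoplasmic tail carries tyrosine motifs that, once phosphorylated by Src family kinases, recruit the phosphatases SHP-1 (*Ptpn6*), SHP-2 (*Ptpn11*) and SHIP-1 (*Inpp5d*) and dampen activation. It is best known from macrophages, dendritic cells and mast cells and is also made by activated NK and T cells, so the gene alone does not name its cell of origin. Its neighbor *Lilr4b* encodes gp49A, a close relative without the inhibitory tail that signals through the Fc receptor γ chain (*Fcer1g*).

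On GRCm38, *Lilrb4a* (ENSMUSG00000112148.1) lies on the plus strand at chr10:51490956-51496611, and *Lilr4b* (ENSMUSG00000112023.1) lies before it on the same strand at chr10:51480632-51486703. The coding sequence of *Lilrb4a* has 9 exons and 1005 bases, and that of *Lilr4b* 8 exons and 909 bases. Over the 7 coding exon pairs of equal length, 829 of 864 bases were identical (95.95%). Exon 3, which differed at 17 of 285 bases, is shown because a read tells these genes apart only at such bases. Capitals mark the bases that differ, and the sequences are from GENCODE M21.
Lilrb4a coding exon 3 (chr10:51491434-51491718, plus strand): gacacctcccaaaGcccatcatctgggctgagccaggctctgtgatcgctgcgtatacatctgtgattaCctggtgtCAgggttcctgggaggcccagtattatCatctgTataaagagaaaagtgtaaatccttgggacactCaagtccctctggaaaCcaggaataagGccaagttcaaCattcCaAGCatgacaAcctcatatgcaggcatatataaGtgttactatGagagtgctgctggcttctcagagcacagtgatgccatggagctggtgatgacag
Lilr4b coding exon 3 (chr10:51481140-51481424, plus strand): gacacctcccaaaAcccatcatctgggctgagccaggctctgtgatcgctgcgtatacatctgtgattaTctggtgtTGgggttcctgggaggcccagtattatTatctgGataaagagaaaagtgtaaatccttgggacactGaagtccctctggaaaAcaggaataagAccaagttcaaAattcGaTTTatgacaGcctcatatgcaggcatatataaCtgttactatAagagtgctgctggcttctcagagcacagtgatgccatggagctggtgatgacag
The longest stretch without a difference was 55 bases in exon 3 and 96 bases in any exon pair, both longer than the 43-base first read of the methods, while the series design text gives reads of 75 bp. Of the 963 windows of 43 bases in the coding sequence of *Lilrb4a*, 244 (25.3%) also occurred in a transcript of *Lilr4b*, so that a first read from there, taken without its mate, matched both genes.

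The genes part at their last exons, which encode the end of the cytoplasmic tail. Exon 8 is shown with its longest run of c in capitals, 5 bases in *Lilrb4a* and 7 in *Lilr4b*, and exon 9 has no coding counterpart in *Lilr4b*.
Lilrb4a coding exon 8 (chr10:51495994-51496059, plus strand): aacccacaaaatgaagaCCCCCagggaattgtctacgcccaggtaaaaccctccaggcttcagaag
Lilr4b coding exon 8 (chr10:51485713-51485757, plus strand): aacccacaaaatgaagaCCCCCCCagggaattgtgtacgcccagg
Lilrb4a coding exon 9 (chr10:51496167-51496241, plus strand): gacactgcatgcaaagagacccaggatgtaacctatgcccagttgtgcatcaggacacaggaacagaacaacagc

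A further annotated gene, *Gm49339*, runs through both genes on the same strand and had 0 counts in all 8 samples. Its exons shared 1846 of the 5227 exon bases of *Lilrb4a* (35.3%), and every 43-base window of the coding sequence of *Lilrb4a* also occurred in a *Gm49339* transcript. The corresponding overlap was 122 exon bases (2.24%) in *Lilr4b*, and no other gene on the same strand overlapped exons of *C1qa*, *Csf1r* or *Lyz2*. The deposited counts come from featureCounts, whose default leaves out a read that overlaps more than 1 gene, and its setting is not given in the sources used here. Had such reads been counted for both genes, *Gm49339* would hold every read of *Lilrb4a* in their shared exon bases, and it held 0 counts. Under that default, the count of *Lilrb4a* would rest on the 3353 exon bases that it shares with no other gene. Of these, 3252 lie outside the exons of its coding transcripts, in exons of its other transcripts. *Gm49339* has only 22 of its 1990 exon bases to itself (1.11%), so under that default its 0 counts would say little about its transcription. Counts of *Lilrb4a* and *Lilr4b* are therefore given both separately and summed.

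The WT samples S1 to S4 held 2833, 2255, 1822 and 1239 counts of *Lilrb4a*, and the KO samples S5 to S8 held 202, 298, 245 and 593. These corresponded to 165, 123, 149 and 102 CPM after scaling with edgeR's TMM factors in WT and to 13.3, 24.1, 20.4 and 20.9 CPM in KO. Every KO sample lay below every WT sample, as was the case for 8.28% of all tested genes. The highest KO value was 23.6% of the lowest WT value. The mean was 135 ± 27.6 CPM in WT and 19.7 ± 4.57 CPM in KO (SD, n = 4 each), a log2 fold change of -2.78 with a standard error of 0.18, or 6.85-fold lower in KO. Among 15378 tested genes, 163 had a lower log2 fold change, and none of these 163 had as high a mean log2 CPM as *Lilrb4a*. In the same fit, edgeR's quasi-likelihood test with Benjamini-Hochberg adjustment called 306 genes lower in KO (1.99%) and 447 higher (2.91%) where the adjusted p was under 0.01 and the fold change over 1.5. In such bulk samples, fewer cells that express *Lilrb4a* and less *Lilrb4a* RNA per cell cannot be told apart.

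Per kilobase of annotated exon, *Lilrb4a* was at 25.8 ± 5.28 RPKM in WT and 3.76 ± 0.874 RPKM in KO. The level over its unshared exon bases alone would be 40.1 ± 8.24 and 5.86 ± 1.36 RPKM. On the same scale, *Lilr4b* was at 30.6 ± 9.40 RPKM in WT and 6.74 ± 1.80 RPKM in KO. *C1qa*, a chain of complement C1q, was at 48.1 ± 31.8 and 3.13 ± 0.680 RPKM. *Lyz2*, lysozyme, was at 63.9 ± 31.1 and 8.05 ± 3.53 RPKM, and *Csf1r*, the receptor for CSF1, at 7.79 ± 4.43 and 1.01 ± 0.557 RPKM. Over all annotated exon bases, the order of the WT levels was thus *Lyz2*, *C1qa*, *Lilr4b*, *Lilrb4a* and *Csf1r*. On this scale, the WT samples of *Lilrb4a* overlapped in RPKM with those of *Lilr4b* and *C1qa*, but not with those of *Lyz2* or *Csf1r*. Over its unshared exon bases, *Lilrb4a* at 40.1 RPKM in WT would instead lie above *Lilr4b* at 30.6 RPKM. Its WT samples would then also overlap with those of *Lyz2*. *Cd8a*, the CD8 α chain of the sorted cells, was at 369 ± 25.7 RPKM in WT and 305 ± 29.4 RPKM in KO.

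**Figure D1:**
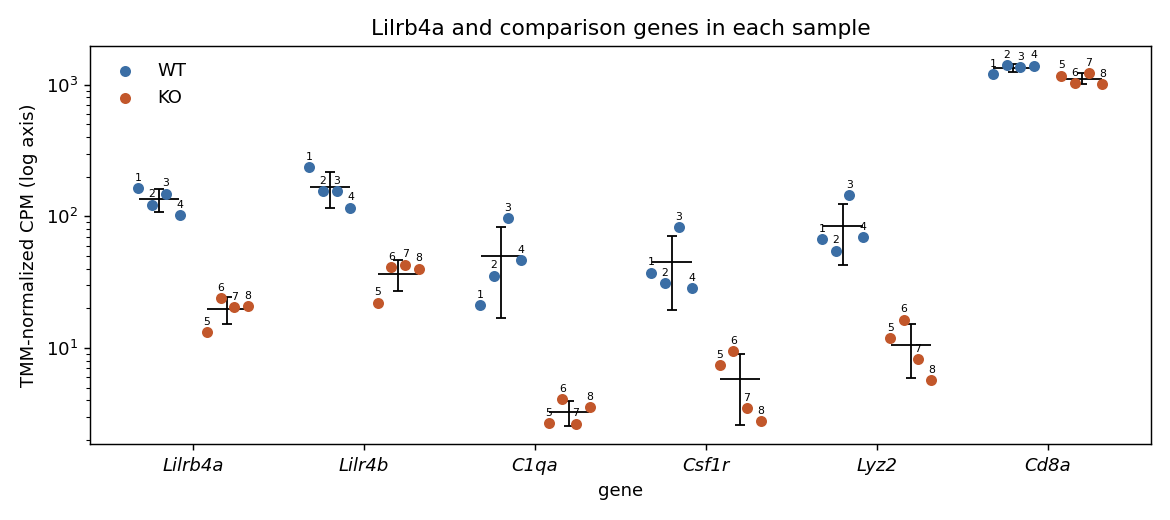
TMM-normalized CPM (log axis) of *Lilrb4a*, its neighbor *Lilr4b*, 3 myeloid genes and *Cd8a* in the WT (blue) and KO (orange) samples. Points are samples, labelled with their number, and bars are the mean ± SD of 4 samples. *Lilrb4a* lay at 102 to 165 CPM in WT and 13.3 to 24.1 CPM in KO, and S3 was the highest WT sample for *C1qa*, *Csf1r* and *Lyz2* but not for *Lilrb4a*.

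The same fit gave a lower level in KO for each comparison gene, with edgeR's adjusted p over all tested genes. *C1qa* was at 21, 35.5, 97.1 and 46.4 CPM in WT and at 2.69, 4.12, 2.67 and 3.55 CPM in KO (log2 fold change -3.93 ± 0.38, SE, adjusted p = 3.32e-06 by edgeR). *Csf1r* was at 37.4, 31.0, 82.9 and 28.5 CPM in WT and 7.42, 9.54, 3.50 and 2.78 CPM in KO (-2.97 ± 0.39, adjusted p = 7.62e-05 by edgeR). *Lyz2* was at 66.8, 54.8, 145 and 69.9 CPM in WT and 11.9, 16.4, 8.26 and 5.73 CPM in KO (-3.01 ± 0.32, adjusted p = 9.03e-06 by edgeR). The size of the difference in *Lilrb4a* was therefore near that of *Csf1r* and *Lyz2* and smaller than that of *C1qa*, while the order of the WT samples was another.

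S3 stood apart for the myeloid genes. Compared with the mean of the other WT samples on the log2 scale, S3 was 2.97-fold higher for *C1qa*, 2.58-fold higher for *Csf1r* and 2.28-fold higher for *Lyz2*. For *Lilrb4a* the same comparison gave 1.17-fold, and for *Lilr4b* 0.949-fold. *Lilrb4a* was highest in S1, the sample in which *C1qa* was lowest among WT. Among KO samples, *Lilrb4a* was lowest in S5, where *Csf1r* and *Lyz2* were second only to S6, and S6 was the highest KO sample for *Lilrb4a* and for all 3 comparison genes.

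With S3 included, the spread of *Lilrb4a* was also narrower than that of the comparison genes in WT. The SD of log2 CPM within WT was 0.30 for *Lilrb4a*, 0.42 for *Lilr4b*, 0.92 for *C1qa*, 0.70 for *Csf1r* and 0.61 for *Lyz2*. Counting error alone would give 0.03 to 0.06 for these genes. In KO the SD was 0.37 for *Lilrb4a*, 0.45 for *Lilr4b*, 0.30 for *C1qa*, 0.83 for *Csf1r* and 0.65 for *Lyz2*, so that *C1qa* was here the least variable. Counting error alone would give 0.085 for *Lilrb4a* in KO, and 0.209, 0.167 and 0.118 for *C1qa*, *Csf1r* and *Lyz2*. The median SD over all tested genes was 0.301 in WT and 0.314 in KO, and the SD of *Lilrb4a* was above that of 50.4% of tested genes in WT and 56.9% in KO. The highest WT sample exceeded the lowest by 1.61-fold for *Lilrb4a*, 4.62-fold for *C1qa*, 2.91-fold for *Csf1r* and 2.64-fold for *Lyz2*. In KO the corresponding values were 1.82-fold, 1.54-fold, 3.43-fold and 2.86-fold. The spread of *Lilrb4a* in KO rested on S5, without which it was 0.13. In WT the order rested on S3. Without S3, the SD in WT was 0.35 for *Lilrb4a*, 0.52 for *Lilr4b*, 0.58 for *C1qa*, 0.20 for *Csf1r* and 0.19 for *Lyz2*. *Csf1r* and *Lyz2* then varied less than *Lilrb4a*, and *C1qa* still varied more.

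**Figure D2:**
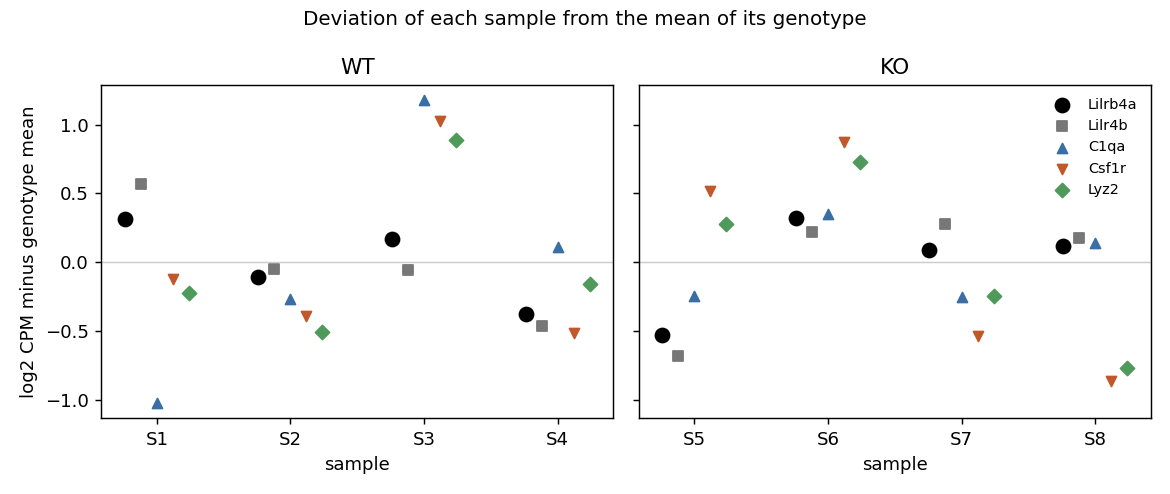
Deviation of log2 CPM from the mean of the genotype in each WT (left) and KO (right) sample. *Lilrb4a* (black circles) deviated by 0.31, -0.11, 0.17 and -0.37 in WT and by -0.53, 0.32, 0.09 and 0.12 in KO, beside *Lilr4b* (gray squares). The 3 myeloid genes were highest in S3 and in S6, and *Lilrb4a* in S1 and in S6.

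Deviations from the genotype means were then compared over the 8 samples by Pearson's r, given as a description since few points and shared library depth stand behind it. *C1qa*, *Csf1r* and *Lyz2* correlated with each other at r = 0.50 to 0.96. *Lilrb4a* correlated with them at r = 0.07, 0.15 and 0.13, and with the myeloid score, the mean log2 CPM of 16 tested myeloid genes, at r = -0.01. This value ranged from -0.30 without S3 to 0.34 without S5. The median r of *Lilrb4a* was 0.09 over the 16 myeloid genes and -0.01 over all tested genes. The median r of these 16 genes with the score was 0.76, a value raised by construction because they make up the score.

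S3 was the highest WT sample for 14 of the 16 myeloid genes, and S8 the lowest KO sample for 9 of them. *Lilrb4a* was highest in S1 and lowest in S5. S6 was the highest KO sample for 10 of the 16, as it was for *Lilrb4a*. Of these genes, 13 had a larger SD than *Lilrb4a* in WT and 14 in KO. Counting error alone in KO ranged from 0.079 (*Cd68*) to 1.135 (*Ms4a7*) over these genes, against 0.085 for *Lilrb4a*. The myeloid genes were not uniform. *Cd14*, the lipopolysaccharide co-receptor, varied little in WT, at 12.6, 13.1, 11.9 and 12.9 CPM, and was at 2.50, 3.56, 2.67 and 1.83 CPM in KO.

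**Figure D3:**
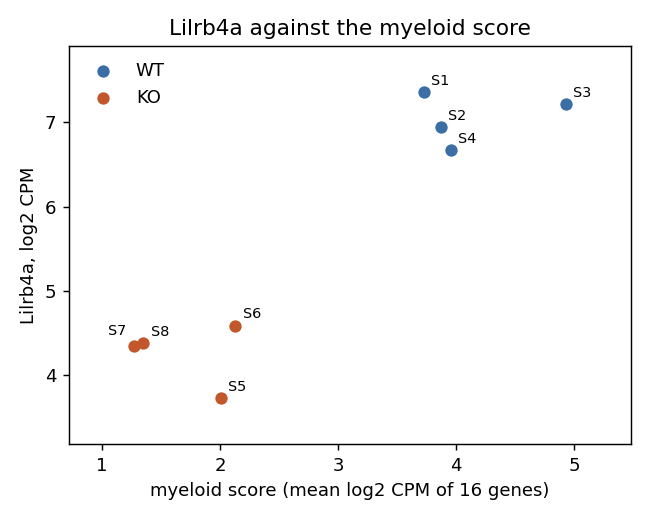
*Lilrb4a* (log2 CPM) against the myeloid score (mean log2 CPM of 16 genes) in each sample. The score was 3.73 to 4.93 in WT and 1.27 to 2.13 in KO. Within WT, S3 had a score of 4.93 but no higher *Lilrb4a* than S1 at 3.73, and within KO, S6 had the highest score (2.13) and the highest *Lilrb4a*, while S5 had the lowest *Lilrb4a* at a score of 2.01.

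The score and the genotype did not overlap, so a fall of *Lilrb4a* within T cells and fewer myeloid transcripts in the KO sort cannot be told apart from the difference between genotypes alone. With the score as a covariate, the log2 fold change of *Lilrb4a* was -2.74 with a standard error of 0.53, against -2.78 and 0.18 without it. For *Lilr4b* it was -2.95 with a standard error of 0.60. For *C1qa*, *Csf1r* and *Lyz2*, which are part of the score, it was -0.99, 0.41 and -0.16. These are values without a test, since score and genotype correlated at r = -0.94 over the 8 samples.

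Ratios of counts in the same sample do not depend on scaling. Per count of *C1qa*, the WT samples held 7.83, 3.46, 1.53 and 2.20 counts of *Lilrb4a* and the KO samples 4.93, 5.84, 7.66 and 5.87. The ratio in WT thus varied 5.12-fold, and its range covered all KO values. Per count of *Csf1r* there were 4.40, 3.96, 1.79 and 3.58 in WT and 1.79, 2.53, 5.83 and 7.51 in KO. Per count of *Lyz2* there were 2.47, 2.24, 1.03 and 1.46 in WT and 1.11, 1.47, 2.47 and 3.64 in KO. The genotypes overlapped for all 3 ratios, and the ratio in KO varied 1.55-fold to 4.20-fold between samples. Relative to the myeloid score, *Lilrb4a* changed by -0.34 on the log2 scale between genotypes, and relative to *C1qa*, *Csf1r* and *Lyz2* alone by 0.43. Per count of *Cd8a*, there was no overlap, with 0.137, 0.0871, 0.110 and 0.0734 in WT and 0.0113, 0.0235, 0.0167 and 0.0206 in KO.

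**Figure D4:**
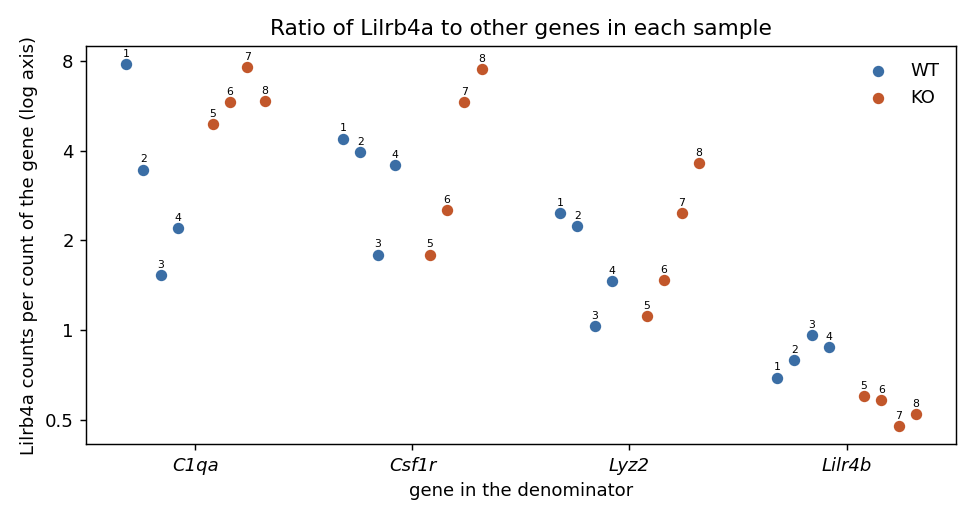
Counts of *Lilrb4a* per count of *C1qa*, *Csf1r*, *Lyz2* and *Lilr4b* in each WT (blue) and KO (orange) sample, on a log axis. WT and KO samples overlapped for *C1qa*, *Csf1r* and *Lyz2*, while for *Lilr4b* the WT ratios of 0.692 to 0.962 lay above the KO ratios of 0.475 to 0.599.

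Of the 14 other names on the list of the Lilr and Pir family, 7 were found in the table and 3 were tested. *Lilr4b* was at 238, 156, 154 and 117 CPM in S1 to S4 and at 22.1, 41.4, 43.1 and 40.0 CPM in the KO samples. It was 4.54-fold lower in KO (log2 fold change -2.18 ± 0.21, SE, adjusted p = 3.72e-06 by edgeR), the only one of the 3 called, beside 1.99% of all genes called lower. *Lilr4b* shared the pattern of *Lilrb4a*, with S1 highest and S4 lowest in WT and S5 lowest in KO, and an r of 0.92 within genotypes. The part of the shared sequence in that likeness was not tested. Its ratio to *Lilrb4a* differed between genotypes, at 0.692, 0.790, 0.962 and 0.876 counts of *Lilrb4a* per count of *Lilr4b* in WT and 0.599, 0.582, 0.475 and 0.521 in KO. The limit given above for *Gm49339* holds for this ratio too. With the counts of both genes summed, the log2 fold change was -2.42 and the SD of log2 CPM was 0.36 in WT and 0.42 in KO. *Pirb*, the paired immunoglobulin-like receptor B that inhibits myeloid and B cells, was at 5.17, 4.25, 12.4 and 4.78 CPM in WT and at 0.853, 3.64, 0.835 and 0.703 CPM in KO (-2.16 ± 0.58, adjusted p = 0.0215 by edgeR). *Pirb*, unlike *Lilrb4a*, was highest in S3 among WT samples, and was called without S6 (adjusted p = 0.00162 by edgeR) and by DESeq2 (adjusted p = 0.00226). *Lilra5*, an activating member, was at 1.69, 1.80, 2.04 and 3.13 CPM in WT and was detected in KO in S6 alone, at 0.889 CPM (adjusted p = 0.0919 by edgeR). Without S6, when no KO sample held a count, *Lilra5* was called (adjusted p = 0.0036 by edgeR).

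Within 250 kb of *Lilrb4a*, genes other than *Lilr4b* held at most 47 counts in any sample. The lincRNA *Gm46224* had 16, 23, 47 and 0 counts in WT and 0 in all KO samples. The antisense gene *Gm40645*, which overlaps *Lilrb4a*, had 9 counts in S3 and 0 in the other samples. The counts at this locus were thus assigned almost wholly to *Lilrb4a* and *Lilr4b*, with the limit given above for *Gm49339*.

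The molecules that LILRB4A signals through or binds were taken from a list of 15 genes, of which all were tested, 6 were lower in KO, beside 1.99% of all genes, and 0 higher. The median log2 fold change of the list was -0.37, beside -0.01 over all tested genes. *Ptpn6* (SHP-1) was at 261 ± 24.1 CPM in WT and 170 ± 37.6 CPM in KO (-0.62 ± 0.13, adjusted p = 0.0054 by edgeR). This call was lost without S2, S3, S4, S6, S7 or S8, with adjusted p up to 0.0225 by edgeR. Its deviations ran against those of *Lilrb4a* within genotypes (r = -0.88). *Ptpn11* (SHP-2) was at 123 ± 2.68 and 95.8 ± 9.90 CPM (-0.36 ± 0.10, adjusted p = 0.0318 by edgeR). *Inpp5d* (SHIP-1) was at 191 ± 33.2 and 191 ± 24.7 CPM (0.00 ± 0.13, adjusted p = 0.996 by edgeR).

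*Lyn*, a Src family kinase that myeloid cells and B cells use, was at 21.1 ± 5.68 CPM in WT and 4.58 ± 1.83 CPM in KO (-2.21 ± 0.30, adjusted p = 9.29e-05 by edgeR). *Fgr* (-0.06 ± 0.29), a myeloid kinase, did not pass, and neither did *Lck* (-0.05 ± 0.09) and *Fyn* (-0.24 ± 0.12), the kinases next to the T cell receptor. *Fcer1g*, through which gp49A signals, was at 13.4 ± 9.25 and 2.56 ± 1.93 CPM (-2.40 ± 0.51, adjusted p = 0.00493 by edgeR), a call that was lost without S3, S4, S5, S7 or S8. Like *C1qa* and unlike *Lilrb4a*, *Fcer1g* was highest in S3, at 26.5 CPM against 6.68, 7.14 and 13.1 CPM in the other WT samples.

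Of the ligands on the list, *Apoe*, apolipoprotein E, was at 36.6, 65.3, 145 and 73.1 CPM in WT and at 14.2, 13.2, 8.18 and 4.36 CPM in KO (-3.02 ± 0.38, adjusted p = 5.22e-05 by edgeR). *Fn1*, fibronectin, was at 56.7, 38.4, 53.1 and 28.3 CPM in WT and at 6.50, 10.7, 3.42 and 0.950 CPM in KO (-3.08 ± 0.46, adjusted p = 0.000269 by edgeR). The order of the WT samples from S1 to S3, S2 and S4 was the same in *Fn1* as in *Lilrb4a*, but in KO *Fn1* was lowest in S8 and *Lilrb4a* in S5, while *Apoe* was highest in S3. The integrin chains *Itgav* (-0.19 ± 0.14) and *Itgb3* (-0.37 ± 0.14), which form a receptor reported to bind gp49B, did not pass the test.

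**Figure D5:**
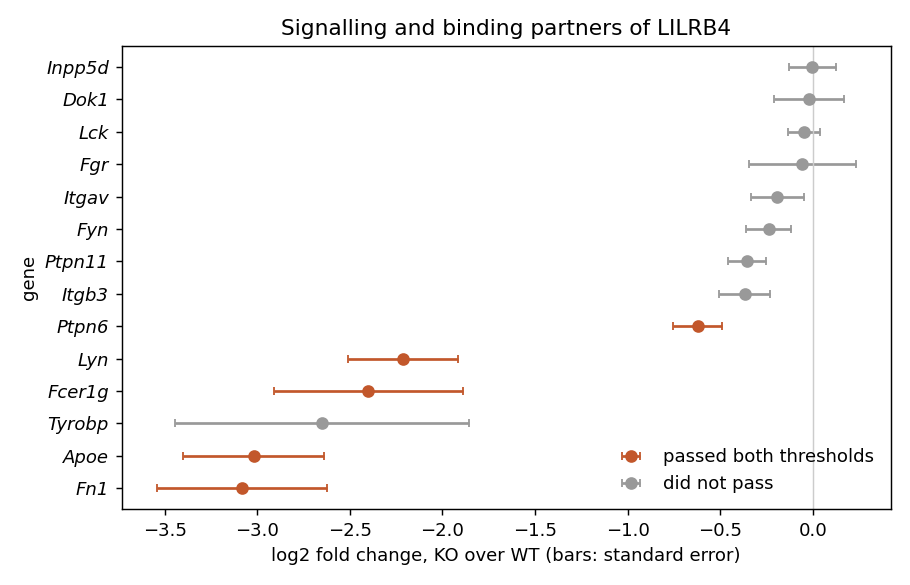
Log2 fold change of KO over WT with its standard error for 14 of the 15 signalling and binding partners of LILRB4. Orange marks the genes that passed both thresholds, *Ptpn6*, *Lyn*, *Fcer1g*, *Apoe* and *Fn1*, all lower in KO, and gray those that did not.

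*Lilrb4a* was next set beside genes of the T cells. The summed level of 11 CD8 T cell markers was 4340 to 4963 CPM in WT and 4137 to 5000 CPM in KO. Their SD of log2 CPM was below that of *Lilrb4a* for all 11 in WT and for all but 1, *Pdcd1* (0.446), in KO. Their median r with *Lilrb4a* within genotypes was -0.30. Of 9 cytotoxic granule genes, 5 were lower in KO, beside 1.99% of all genes, and 0 higher, among them *Gzmc* (-2.65 ± 0.27, adjusted p = 5.23e-06 by edgeR) and *Gzmd* (-3.25 ± 0.39, adjusted p = 3.12e-05 by edgeR). Their log2 fold changes were near or beyond that of *Lilrb4a*, but they were highest in S4 and S2, respectively, and lowest in S1 among WT samples, with r = -0.71 and -0.61 with *Lilrb4a* within genotypes. *Gzme*, also called lower (log2 fold change -2.48), had r = 0.07, and *Gzmf*, called too, had r = -0.41. The median r over the 9 granule genes was -0.41. *Gzmb*, the main granzyme, did not pass the test (0.12 ± 0.15).

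*Lilrb4a* was also set beside other inhibitory receptors of T cells. Of 12 genes, 3 were higher in KO, beside 2.91% of all genes called higher, and 1 was lower, beside 1.99%. *Cd101* was at 35.4 ± 1.77 CPM in WT and 190 ± 10.3 CPM in KO (2.42 ± 0.10, adjusted p = 4.53e-10 by edgeR). *Havcr2* (TIM-3) was at 177 ± 31.2 and 373 ± 71.5 CPM (1.08 ± 0.14, adjusted p = 8.57e-05 by edgeR), and *Ctla4* was higher by 0.79 ± 0.12 on the log2 scale (adjusted p = 0.000354 by edgeR). *Cd244a* (2B4), the receptor that was lower like *Lilrb4a*, was at 19.5, 27.3, 34.8 and 19.4 CPM in WT and at 15.8, 7.35, 7.26 and 5.91 CPM in KO (-1.48 ± 0.29, adjusted p = 0.00294 by edgeR). Its call was lost without S2, S3, S6 or S7, at adjusted p up to 0.0152 by edgeR. *Pdcd1* (PD-1), on which the cells were sorted, did not pass (-0.33 ± 0.17). The median r of these 12 genes with *Lilrb4a* within genotypes was -0.36.

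The genes most like *Lilrb4a* over all 8 samples, among 10941 genes with a mean log2 CPM above 2, included *Pld2* (r = 0.99), *Lilr4b* (0.99), *Emilin2*, *C330007P06Rik*, *Ecsit*, *Gm4332*, *Cables1*, *Tfap4* and *Tubb2a*. This ranking mostly follows the genotype, and 156 genes had an r above 0.9. *Emilin2*, which encodes an extracellular matrix protein, was at 20.8, 22.8, 19.6 and 17.0 CPM in WT and at 2.23, 3.15, 1.92 and 2.74 CPM in KO (-2.99 ± 0.25, adjusted p = 5.66e-07 by edgeR). *Pld2*, phospholipase D2, was at 30.8, 27.3, 30.3 and 21.5 CPM in WT and at 10.8, 14.9, 12.6 and 13.8 CPM in KO (-1.07 ± 0.18, adjusted p = 0.000935 by edgeR). Once the genotype means were removed, the closest included *Ppp2r3a* (r = 0.98), *Arv1*, *Phf13*, *Foxp1*, *Gnptg*, *Fdxacb1*, *Zcchc2*, *Dhx33* and *Qtrt1*, and 45 genes had an r above 0.9. *Lilr4b* ranked 23rd. *Ppp2r3a*, a regulatory subunit of protein phosphatase 2A, was higher in KO, at 11.5, 9.15, 11.8 and 7.51 CPM in WT and 17.1, 28.7, 26.1 and 25.6 CPM in KO (1.28 ± 0.22, adjusted p = 0.000798 by edgeR). None of the 10 closest genes was on the myeloid list. That list holds 16 of the 15378 tested genes, so 10 genes picked at random would rarely include a member of it.

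The targeted gene, *Kdm1a*, was at 44.9 ± 1.87 CPM in WT and 30.6 ± 4.03 CPM in KO (-0.55 ± 0.14, adjusted p = 0.0163 by edgeR), lower in every KO sample but not called, with counts taken over the whole gene and not the floxed part alone. Of 18 myeloid genes, 16 were tested, 11 were lower in KO, beside 1.99% of all genes, and 0 higher. Every KO sample lay below every WT sample for 14 of the 16, beside 8.28% of all genes. The summed myeloid level was 305 to 809 CPM in WT and 64.9 to 116 CPM in KO. Among lists for other cells, the summed level was 0.756 to 6.61 CPM in WT and 0.328 to 3.26 CPM in KO for neutrophils, with *S100a9*, *Cxcr2* and *Retnlg* at 0 counts in all samples. For dendritic cells it was 12.8 to 17.9 and 3.64 to 8.99 CPM, nearly all from *Zbtb46*, and for mast cells 66.8 to 83.9 and 41.9 to 82.0 CPM, nearly all from *Kit*, with *Cma1*, *Tpsb2* and *Ms4a2* at 0 counts. The B cell list was at 2.09 to 5.86 CPM in WT and 15.8 to 44.5 CPM in KO, mainly from *Cd22*, which was higher in KO (3.00 ± 0.43, adjusted p = 0.000189 by edgeR). The stromal and endothelial list was at 21.4 to 31.3 and 58.0 to 78.6 CPM, mainly from *Pecam1*, also higher in KO (1.48 ± 0.15, adjusted p = 5.23e-06 by edgeR). The NK cell list, mainly *Klre1*, was at 45.7 to 53.9 and 28.9 to 50.7 CPM. The tumour epithelium list was at 0.0825 to 1.34 and 0 to 1.21 CPM, with *Krt8* and *Krt19* at 0 counts. The part of myeloid transcripts in the difference of *Lilrb4a* was not tested.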

How the data were processed

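CD8+ TILs of 4 WT and 4 KO samples were profiled by RNA-seq of ribosomal RNA-depleted, directional libraries. Per the labels and methods, the authors used STAR for alignment to GRCm38 and featureCounts for counting on a GENCODE release later than M21, and the deposited values are raw counts per gene. Their DESeq2 test with a GC content correction was left out. Genotypes of the 8 columns were taken from the legend of the study's principal component plot, which names S1 to S4 as WT and S5 to S8 as KO, and the columns could not be matched to replicate numbers. Replicates are separate mice or pools of mice.

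Totals were 11657807 to 30295406 counts per sample, so that 3 counts correspond to 0.106 to 0.25 CPM, which covers counting error only. In all 12 pairs within a group, the counts differed by more than sampling noise, the median chi-square being 4.9 to 8.56 for a gene. Of the gene IDs, 55154 matched GENCODE M21 on GRCm38, which gave positions, exon overlaps, lengths and the sequences printed.

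edgeR 4.0.16 in R 4.3.3 was used with filterByExpr, TMM factors, glmQLFit and glmQLFTest, without covariates, with thresholds of 0.01 for the adjusted p over 15378 genes and 1.5 for the fold change. Each standard error was the log2 fold change, without its sign, divided by the square root of F. Log2 CPM used a prior count of 2. The steps were tested on simulated data. Genes on the lists, the comparison genes, the genes within 250 kb and the 10 most like *Lilrb4a* by each correlation were named, apart from a few that are not reported here. Members and lists were chosen with earlier results of these data known. Alternatives were DESeq2 1.42.0, other scaling and filters, a prior count of 0.5, an adjusted p under 0.05, a myeloid covariate and leaving out each sample. Summing *Lilrb4a* and *Lilr4b* was added after seeing the data.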

Additional observations from a re-analysis of the deposited data

Results flagged for a closer look

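In 6 of 96 groups of 4 samples, 1 sample's log2 CPM lay far from the other 3, where chance gives about 1 in 20 groups, or 4.8. In KO, S5 was low for *Lilr4b* at 4.48, while the rest of KO lay at 5.33 to 5.43 (gap over range 0.89), and S5 also had the lowest *Lilrb4a*. S5 was low for *Gzmb* too, at 9.85, against 10.51 to 10.63 (0.855). S6 was high for *Pirb* at 1.91, against -0.27 to -0.03 (0.89), and for *Lilra5* at 0.02, against -3.00 in the other KO samples, all at 0 counts (1). S7 was low for *Trem2* at -3.00, against -0.92 to -0.77 (0.935), where S7 had 0 counts. S7 was high for *Cd3e*, a chain of the T cell receptor complex, at 8.54, against 8.28 to 8.30 (0.902). No group of *Lilrb4a* itself, of *C1qa*, *Csf1r* or *Lyz2*, or of the myeloid score held such a sample.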

How the results depend on the processing

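The log2 fold change of *Lilrb4a* was -2.80 to -2.77 under other scalings, filters and DESeq2, -2.89 to -2.63 when 1 sample was left out and -2.42 with *Lilr4b* summed, a fit chosen after seeing the data. Without 1 sample, its SD was 0.21 to 0.36 in WT and 0.13 to 0.45 in KO, its r with the myeloid score -0.30 to 0.34, and its change relative to the myeloid genes -0.55 to -0.06. Relative to *C1qa*, *Csf1r* and *Lyz2* alone, that change was 0.43, the opposite sign to -0.34. The count of genes higher in KO was 347 to 452 without 1 sample, 642 without a filter, 617 with DESeq2 and 695 at an adjusted p under 0.05. The count of genes lower was 199 (without S2) to 303, 204 without S3, 531 without a filter, 461 with DESeq2 and 551 at an adjusted p under 0.05. The cause was not tested. Over 46 listed genes and 690 alternative values, 628 stayed on the same side, 17 calls were lost, 11 gained, and 27 values moved. *Adgre1* (adjusted p = 0.013 by edgeR) and *Ms4a7* (adjusted p = 0.0124 by edgeR) lost their call without S3. With the myeloid score as a covariate, 7 called values changed sign, which for genes of the score follows from its construction: *C1qc* to 0.98, *Csf1r* to 0.41, *Cybb* to 1.18, *Ms4a7* to 0.14, *Fcer1g* to 1.97, *Apoe* to 0.39 and *Cd244a* to 0.30. No paired analysis was possible because the columns carry no replicate numbers. The depth limits *Lilra5* and *Trem2*, which had 0 counts in some KO samples, and with 4 samples a genotype the SDs and r values are imprecise.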
